A study of Nicotiana tabacum with 6 samples.

Results

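Transposon-derived gene models were compared between leaves of MuGDH64 and leaves of GDH64, a line of tobacco (Nicotiana tabacum). MuGDH64 is a stable, aphid-resistant mutant line bred from GDH64 by cobalt gamma irradiation, and GDH64 is the unirradiated parent. For each line 3 leaf RNA libraries were sequenced. The plants grew in a field trial in randomized blocks, leaf punches from several plants of a plot were mixed in 1 tube, and no label gives the sampling date of a library or the field plot behind it. The models were chosen by their deposited domain description, which had to name a transposase, a retrotransposon, a reverse transcriptase or an integrase catalytic domain. Of 69500 gene models in the table, 971 had such a description. The 109 that reached at least 1 FPKM (mapped fragments scaled to transcript length and to the total of the library) in at least 3 of the 6 libraries are the members described here, out of 32340 models that met this filter in all. The files pair the identifiers with no gene symbol and give no coordinates or sequences, so each member is named by its identifier and its domain.

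Transposons are DNA segments that move within a genome. Class II elements move as DNA and encode a transposase, which cuts the element out and joins it elsewhere; En/Spm (CACTA), Mutator (MuDR, MULE) and PIF/Harbinger are such superfamilies in plants. Class I elements, or retrotransposons, move through an RNA copy that a reverse transcriptase turns into DNA, and those with long terminal repeats also encode a gag protein and an integrase. Plants usually keep these elements silent in leaves through DNA methylation, small RNAs and repressive chromatin. Some transposase genes have been taken over by the host: in Arabidopsis the Mutator-derived FAR1 and FHY3 are transcription factors of light signalling, and the Harbinger-derived ALP1 is a nuclear protein that associates with the Polycomb repressive complex. The tobacco genome joins those of 2 ancestral species, so closely similar copies are common, and the counting may have divided their reads among models, repeat-derived models above all.

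Most of the 971 models had no measured transcript in leaf. Of them 697 (71.8%) were listed at 0 in all 6 libraries, against 23208 of all 69500 models (33.4%). The filter was met by 11.2% of them, against 46.5% of all models. An exact 0 in such a table can be a failed estimate, and reads that map to many places may not have been assigned. The classes differed widely in this share. Of 28 models with a Harbinger transposase-derived nuclease domain, 15 were members (53.6%), and of 180 En/Spm models 48 were (26.7%). Of 88 models that join a transposase domain to a FAR1 DNA-binding or SWIM/PMZ zinc finger domain 18 were members (20.5%). Of 426 other MULE or MuDR models 13 were (3.05%), with 358 listed at 0 throughout. Retroelement descriptions gave few members: 7 of 139 reverse transcriptase models (5.04%) and 2 of 101 retrotransposon gag models (1.98%). Of 7 models with a reverse transcriptase and a Domain X, the pairing found in maturases that help to splice group II introns in plant organelles, 6 were members. Neither of 2 telomerase models was a member. No description named an integrase catalytic domain, so that part of the choice added no model.

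**Figure D1:**
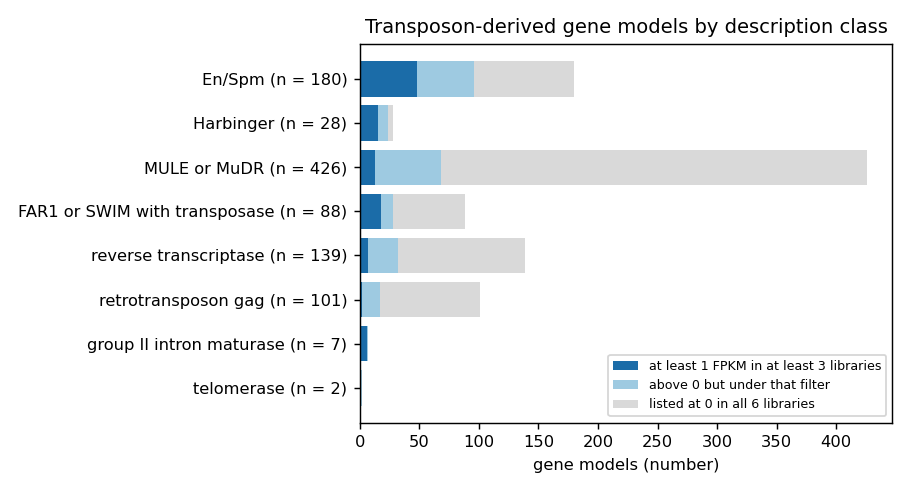
Number of gene models per description class (horizontal axis), split into members that met the level filter, models above 0 under that filter, and models listed at 0 in all 6 libraries. Of the 426 MULE or MuDR models 358 are listed at 0, while 15 of 28 Harbinger models are members.

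Among the members 87 reached 1 FPKM in all 6 libraries, 13 in 4 or 5 and 9 in exactly 3. Of these 9, 4 met the filter through 1 line only, so that their lines had to differ: Nitab4.5_0000066g0180 and Nitab4.5_0003879g0040 through MuGDH64, Nitab4.5_0000021g0420 and Nitab4.5_0000496g0280 through GDH64. The 9 members with exactly 3 such libraries averaged between 0.908 and 3.04 FPKM over the 6 libraries, and the 2 models just outside, with 2 such libraries, averaged 0.798 and 1.01 FPKM. The median member averaged 2.80 FPKM, against 6.53 FPKM for all tested models. In 35 members the mean was under 2 FPKM, in 43 between 2 and 5, in 16 between 5 and 10, in 12 between 10 and 100, and in 3 above 100.

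The libraries showed the labelled tissue, and most tested models were lower in MuGDH64. Summed FPKM over all models was 634425 to 719776 in MuGDH64 and 728572 to 756316 in GDH64, and the read depth is unknown. Summed FPKM of 189 chlorophyll a/b-binding, photosystem and Rubisco small-chain models was 41132.2 to 45612.3 in MuGDH64 and 41775.3 to 44516.7 in GDH64, and that of 7 oleosin and seed storage models was 36.7 to 37.8 against 41.0 to 48.9. Small heat shock models summed to 1950.9 to 2418.5 against 1871.7 to 2145.5 FPKM and 70-kDa heat shock models to 1045.4 to 1179.8 against 1335.5 to 1582.7 FPKM; the part of either in the results below was not tested. The lines were compared with limma, which fits a linear model to every gene, on log2(FPKM + 1), with Benjamini-Hochberg adjusted p values over all 32340 tested models and a threshold of 0.05. A log2 fold change is MuGDH64 over GDH64 on this scale, which understates the change of low models. Its median over all tested models was -0.176, and 75.3% of them were below 0.

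As a group the members followed the rest of the genes. Their median log2 fold change was -0.179, which is -0.003 relative to the median of all tested models, and 86 of the 109 (78.9%) were below 0. Of the 109 members 8 (7.34%) passed the test, 1 higher and 7 lower in MuGDH64, where 11.9% of all tested models passed (2.20% higher and 9.74% lower). Of the 8, 2 had met the level filter through 1 line only, and of the 105 members that met it otherwise 6 passed, each lower in MuGDH64. At an unadjusted p under 0.05 stood 24 of the 109 members, against 10090 of the 32340 tested models (31.2%). The split between higher and lower depended on the scaling: after quantile normalization 3 members were higher and 2 lower (background 4.43% and 5.17%), and after median-centring 4 were higher and 1 lower (background 10.3%, with 1940 models higher and 1384 lower). The quantile-normalized background was 9.60% in all. Without the filter on low values 4 members passed, 1 higher and 3 lower (background 4.93%). The lines did not overlap in 38 members (34.9%), 5 higher and 33 lower, where 37.5% of all tested models did not overlap (5.68% higher and 31.8% lower). All 5 non-overlapping higher members were En/Spm models, a class that holds 48 of the 109 members. In that class 13 members did not overlap, and all but these 5 were lower in MuGDH64. Among these 5, Nitab4.5_0000066g0180 and Nitab4.5_0003879g0040 met the filter only through MuGDH64, so their lines had to differ. The same holds among the 33 lower for Nitab4.5_0000021g0420 and Nitab4.5_0000496g0280, which met it only through GDH64. In leaf, fewer cells of a type and less RNA per cell cannot be told apart. No label ties the libraries to separate plots, so the p values cover their spread alone, which may be technical.

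By library, the 109 members summed to 1328.7, 1289.4 and 1184.3 FPKM in the MuGDH64 libraries and to 1546.7, 1566.4 and 1483.7 FPKM in the GDH64 libraries, so the sums did not overlap. They made up 0.185%, 0.183% and 0.187% of all FPKM in MuGDH64 and 0.206%, 0.207% and 0.204% in GDH64. A pair of Harbinger models supplied 43.3% to 44.4% of the member sum in MuGDH64 and 46.1% to 48.1% in GDH64. The lowest value of a member lay in MuGDH64 library 3 for 50 members, the library with the smallest total, and the highest lay in GDH64 library 2 for 47 members, the library with the largest total.

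**Figure D2:**
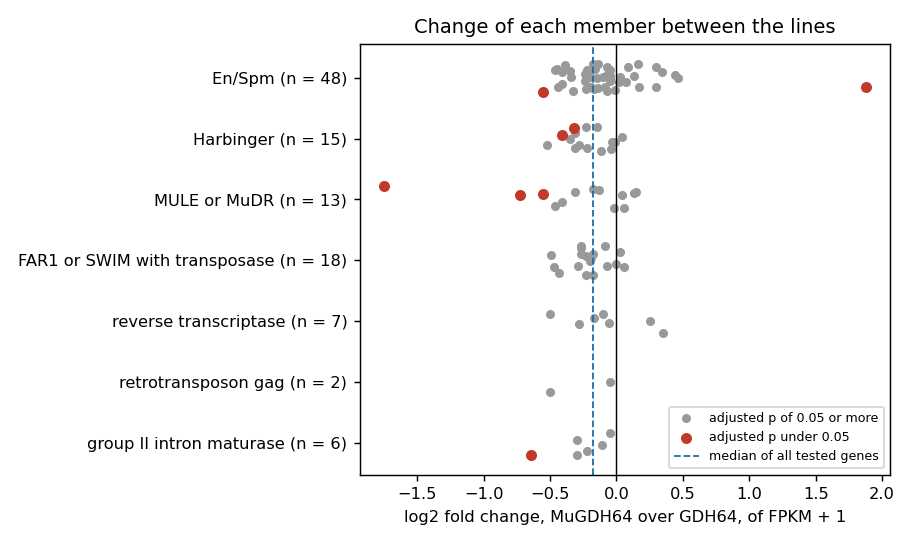
Log2 fold change of FPKM + 1, MuGDH64 over GDH64 (horizontal axis), for each of the 109 members by class; red points passed the adjusted p threshold of 0.05 and the dashed line is the median of all tested genes, -0.176. The members lie around that line, with 1 En/Spm model at 1.88 and 1 MuDR model at -1.75 far from the others.

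The En/Spm class was the most numerous, and it held the member with the highest log2 fold change. Its descriptions read as a probable plant transposase of the Ptta/En/Spm kind in 47 of 48 members with nothing added. Nitab4.5_0000066g0180 stood at 6.26, 5.21 and 4.61 FPKM in MuGDH64, against 0.67, 0.87 and 0.63 FPKM in GDH64. All 3 MuGDH64 libraries were several times above every GDH64 library. The log2 fold change was 1.88 ± 0.15 (with its standard error). Because it met the filter only through MuGDH64, its lines had to differ and its p value after that filter is not read as evidence. In the fit of 46292 models without the filter its limma adjusted p was 0.00294. Nitab4.5_0010337g0020 moved the other way, at 7.38, 5.86 and 6.11 FPKM in MuGDH64 and 10.56, 11.31 and 8.05 FPKM in GDH64. The lines were apart by less than 1 FPKM between the nearest libraries, and the log2 fold change was -0.55 (limma adjusted p = 0.0454). Of 15 other settings 5 kept it past the threshold, and its highest value among them was 0.129.

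The other 46 En/Spm members had log2 fold changes between -0.46 and 0.46, with a median of -0.119 and 34 below 0. Nitab4.5_0003879g0040, which met the filter only through MuGDH64, stood at 1.44, 1.48 and 1.24 FPKM there and at 0.81, 0.81 and 0.66 FPKM in GDH64. Its lines too had to differ, and in the fit without the filter it did not pass (limma adjusted p = 0.0682). Nitab4.5_0014570g0010, at 3.99, 2.82 and 3.02 FPKM in MuGDH64 and 2.37, 2.68 and 2.31 FPKM in GDH64, met the filter in every library. It did not pass as deposited (limma adjusted p = 0.201) and passed after quantile normalization (adjusted p = 0.0472). The lines did not overlap in either model. The most abundant En/Spm members were Nitab4.5_0000004g0180, at 14.8 ± 1.70 FPKM in MuGDH64 and 17.3 ± 1.81 FPKM in GDH64 (mean ± SD of the 3 libraries of a line, here and below), and Nitab4.5_0000282g0120, at 11.9 ± 1.09 and 14.2 ± 0.741 FPKM in MuGDH64 and GDH64. Neither passed (limma adjusted p = 0.257 and 0.168). The description of Nitab4.5_0000004g0180 also names FtsZ domains, those of the protein that forms the plastid division ring.

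The Harbinger class held the most abundant members by far. Nitab4.5_0006861g0010 stood at 305.21, 286.33 and 272.29 FPKM in MuGDH64 and at 383.01, 393.47 and 374.51 FPKM in GDH64. Nitab4.5_0001519g0130 stood at 284.08, 271.85 and 250.64 FPKM in MuGDH64 and at 340.23, 328.65 and 339.75 FPKM in GDH64. Every MuGDH64 library was below every GDH64 library in both. Nitab4.5_0006861g0010 fell by 0.41 on the log2 scale (limma adjusted p = 0.0157) and passed in 12 of 15 other settings, missing after median-centring (0.0617), without GDH64 library 1 (0.0634) and without MuGDH64 library 2 (0.0592). Nitab4.5_0001519g0130 fell by 0.32 (limma adjusted p = 0.0389) and passed in 4 of 15 other settings, the adjusted p reaching 0.309 after median-centring. Relative to the median of all tested models these changes were -0.24 and -0.15.

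The remaining Harbinger members split by level. Nitab4.5_0003458g0010 stood at 113.02, 115.35 and 105.82 FPKM in MuGDH64 and 120.65, 126.24 and 124.90 FPKM in GDH64. Nitab4.5_0002797g0070 stood at 90.89, 90.24 and 84.71 against 91.04, 89.48 and 93.55 FPKM, Nitab4.5_0002824g0030 at 60.69, 60.99 and 53.75 against 82.37, 69.66 and 67.13 FPKM, and Nitab4.5_0002642g0070 at 32.50, 35.42 and 30.23 against 42.48, 43.08 and 39.76 FPKM, MuGDH64 given before GDH64. The lines overlapped in Nitab4.5_0002797g0070 and did not in the other 3, and none of these 4 passed (limma adjusted p = 0.233, 0.736, 0.0893 and 0.0513). The other 9 Harbinger members averaged at most 8.03 FPKM, and none of them passed. In 14 of the 15 Harbinger members the log2 fold change was below 0, with a class median of -0.225. Of all tested models 75.3% were below 0, and relative to their median the class stood at -0.049.

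Identifiers with neighbouring numbers carried recurring descriptions beside some of the 6 Harbinger members averaging at least 10 FPKM. The next number after Nitab4.5_0006861g0010, after Nitab4.5_0001519g0130 and after Nitab4.5_0002642g0070 is in each case a protein kinase with a UspA domain. The number after that is a glyoxalase-like model beside both of the most abundant members. These glyoxalase-like models stood at 126.48, 143.87 and 117.49 FPKM in MuGDH64 against 144.25, 137.48 and 132.72 FPKM in GDH64 (Nitab4.5_0006861g0030), and at 46.99, 60.53 and 44.03 against 46.95, 44.25 and 48.13 FPKM (Nitab4.5_0001519g0150). The lines overlapped in both. Neither description was listed within 3 numbers of Nitab4.5_0003458g0010, Nitab4.5_0002824g0030 or Nitab4.5_0002797g0070. Other descriptions did recur within 3 numbers. Protein kinases with an AGC-kinase domain were listed beside Nitab4.5_0002642g0070, Nitab4.5_0002797g0070 and Nitab4.5_0002824g0030. Leucine-rich repeat kinases were listed beside Nitab4.5_0002642g0070 and Nitab4.5_0002824g0030, and protein phosphatase 2C models beside Nitab4.5_0001519g0130 and Nitab4.5_0002797g0070. The next number is a cyclophilin-type model after Nitab4.5_0003458g0010 and a protein kinase without a UspA domain after Nitab4.5_0002824g0030. No model with the next number follows Nitab4.5_0002797g0070. Before it, Nitab4.5_0002797g0050 and Nitab4.5_0002797g0060 were lower in MuGDH64 (limma adjusted p = 0.0311 and 0.0396), where 9.74% of all tested models were lower. Nitab4.5_0002797g0040 did not pass (limma adjusted p = 0.384). These neighbours were looked up after the members' values had been seen, and the files do not say whether neighbouring numbers lie side by side in the genome.

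**Figure D3:**
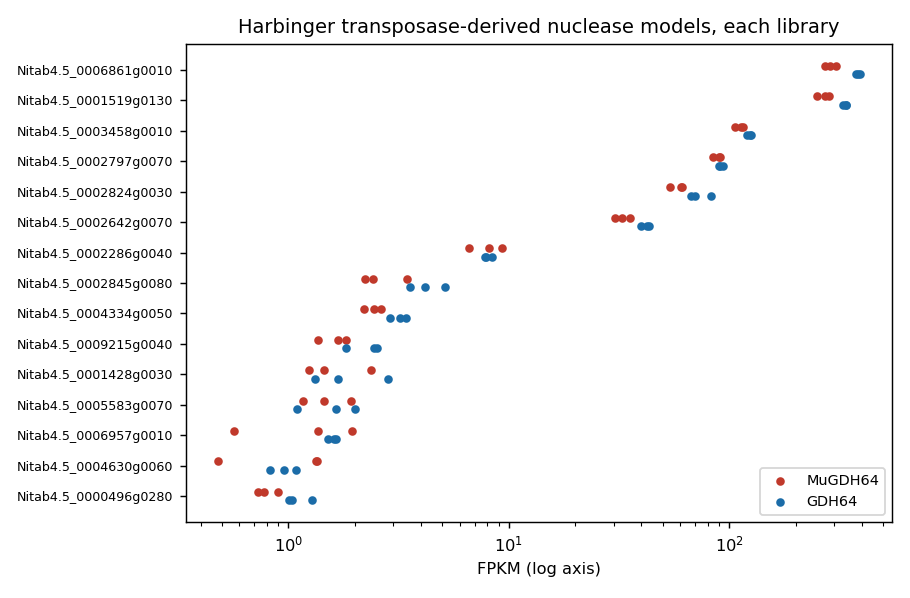
FPKM of each of the 15 Harbinger members (rows) in every library, on a log axis, with MuGDH64 in red above GDH64 in blue. The 2 most abundant models lie between 250.64 and 393.47 FPKM, with every MuGDH64 library below every GDH64 library, and 9 members average at most 8.03 FPKM.

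The MULE or MuDR class held the member with the lowest log2 fold change. MuDR is the autonomous element of the maize Mutator system. Nitab4.5_0000021g0420 was listed at 0 in all 3 MuGDH64 libraries and stood at 2.37, 2.85 and 1.96 FPKM in GDH64. It was the only member listed at 0 throughout 1 line with at least 1 FPKM in every library of the other. Its fitted log2 fold change was -1.75, a value that depends on the pseudocount. It met the filter only through GDH64, so its lines had to differ as well, and in the fit without the filter its limma adjusted p was 0.0018. The models with the adjacent numbers were present in both lines. Nitab4.5_0000021g0410 stood at 58.42, 53.30 and 44.49 FPKM in MuGDH64 and 56.33, 57.98 and 56.01 FPKM in GDH64. Nitab4.5_0000021g0430 stood at 6.33, 5.08 and 2.86 FPKM in MuGDH64 and 7.19, 7.81 and 4.52 FPKM in GDH64. Further off, over both lines, Nitab4.5_0000021g0390 stood at 0.03 to 0.13 FPKM and Nitab4.5_0000021g0400 at 0.39 to 1.69 FPKM, and neither was tested. Nitab4.5_0000021g0440 stood at 3.39 to 5.11 FPKM and Nitab4.5_0000021g0450 at 7.66 to 12.53 FPKM. An exact 0 can be a failed estimate, and neighbouring numbers may not be neighbours in the genome. The cause of the 0 was not tested.

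Smaller differences past the threshold were found in 2 more MuDR models. Nitab4.5_0001238g0030 stood at 0.47, 1.24 and 0.76 FPKM in MuGDH64 and 1.69, 2.30 and 1.95 FPKM in GDH64 (log2 fold change -0.73, limma adjusted p = 0.0417). Nitab4.5_0006826g0030 stood at 2.25, 2.31 and 2.06 FPKM in MuGDH64 and 3.38, 4.54 and 3.25 FPKM in GDH64 (log2 fold change -0.55, limma adjusted p = 0.0442). The lines did not overlap in either, but each passed in only 3 of 14 other settings, with adjusted p up to 0.123 and 0.124. The most abundant models of the class did not follow them. Nitab4.5_0002247g0150 stood at 23.50, 21.38 and 20.43 FPKM in MuGDH64 and 21.71, 18.26 and 18.85 FPKM in GDH64, with overlapping lines (limma adjusted p = 0.382). Nitab4.5_0000202g0410, at 14.37, 13.90 and 14.26 FPKM in MuGDH64 and 14.59, 13.17 and 15.62 FPKM in GDH64, had the smallest log2 fold change, -0.02, among members averaging at least 10 FPKM. The class median was -0.184, with 9 of 13 below 0.

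No member of the FAR1 and SWIM class passed the test. Of its 18 members 14 have a FAR1 DNA-binding domain, the others a SWIM or PMZ zinc finger beside the transposase domain, and all averaged between 0.962 and 6.32 FPKM. Nitab4.5_0002232g0050, the most abundant, stood at 6.36, 5.90 and 5.35 FPKM in MuGDH64 and 6.85, 6.83 and 6.61 FPKM in GDH64 (limma adjusted p = 0.307). Nitab4.5_0001192g0010 stood at 5.17, 5.75 and 4.70 against 6.98, 7.35 and 5.31 FPKM (limma adjusted p = 0.225). The lines overlapped in Nitab4.5_0001192g0010 and did not in Nitab4.5_0002232g0050. The class was even: log2 fold changes ran from -0.49 to 0.06 around a median of -0.214, with 15 of 18 below 0 and 7 of 18 not overlapping, each of these 7 lower in MuGDH64 (38.9%, against 31.8% of all tested models not overlapping and lower). Of all tested models 75.3% were below 0, with a median of -0.176. After quantile normalization the class median was -0.041, and no member of the class passed there or after median-centring.

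**Figure D4:**
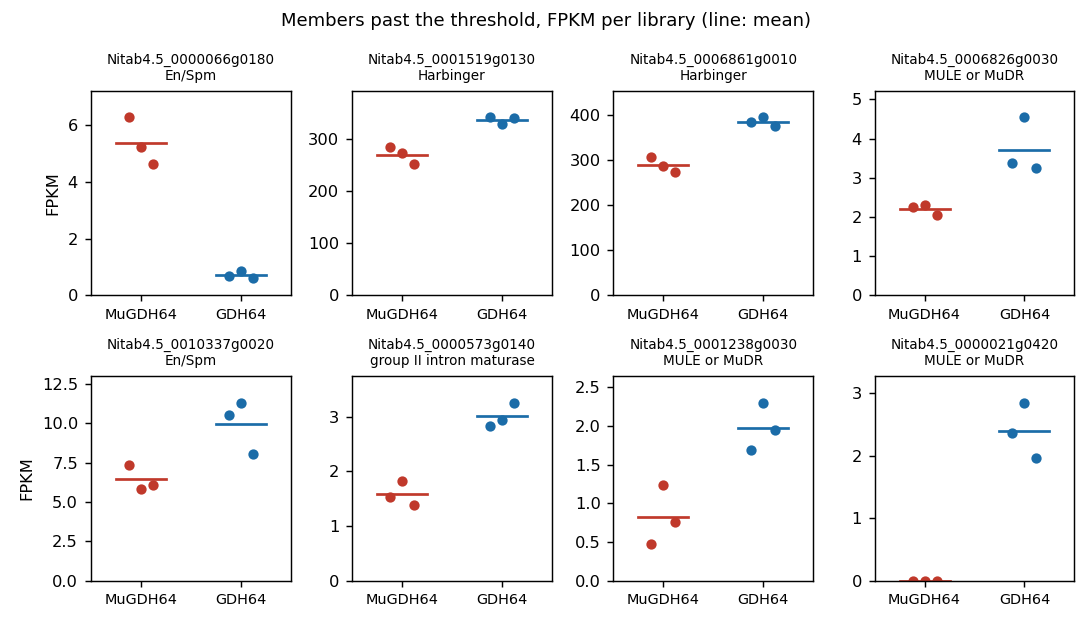
FPKM in each library of the 8 members that passed the test, each panel from 0 with its own scale, MuGDH64 left of GDH64, with short lines at the means. Only Nitab4.5_0000066g0180 is higher in MuGDH64, and Nitab4.5_0000021g0420 is listed at 0 in all 3 MuGDH64 libraries.

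Retroelement-derived members were few, and none passed. All 7 members of the reverse transcriptase class carry the zinc-binding domain that is usual in plant non-LTR elements. Nitab4.5_0008993g0030 was the most abundant, at 32.11, 30.28 and 28.76 FPKM in MuGDH64 and 39.84, 54.89 and 37.54 FPKM in GDH64. The lines did not overlap and it missed the threshold (log2 fold change -0.50, limma adjusted p = 0.0534), passing in 2 of 15 other settings, with a filter of 5 FPKM and without GDH64 library 3. Its description joins the domain to those of a pyridoxal phosphate-dependent aminotransferase, and that of Nitab4.5_0005970g0030, at 7.67 ± 1.11 FPKM in MuGDH64 and 7.97 ± 0.14 FPKM in GDH64, joins it to a DEAD-box RNA helicase. Nitab4.5_0000719g0060, which has the domain alone, stood at 11.56, 12.97 and 10.89 FPKM in MuGDH64 and 16.58, 15.47 and 12.03 FPKM in GDH64, with overlapping lines (limma adjusted p = 0.192). The class median was -0.104. The 2 gag members, of the structural protein of retrotransposon particles, were Nitab4.5_0000838g0080, at 1.91, 3.08 and 2.63 FPKM in MuGDH64 and 2.82, 3.14 and 2.01 FPKM in GDH64, and Nitab4.5_0004494g0010, at 0.37, 1.24 and 0.54 against 0.65, 2.38 and 1.40 FPKM. The lines overlapped in both (limma adjusted p = 0.873 and 0.262).

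The group II intron maturases are not transposon genes in the usual sense, since in plants such proteins splice organelle introns, although group II introns are themselves mobile in bacteria. Of the 6 members 1 fell, where 9.74% of all tested models were lower. Nitab4.5_0000573g0140 stood at 1.53, 1.82 and 1.38 FPKM in MuGDH64 and 2.83, 2.94 and 3.25 FPKM in GDH64. The lines were well apart, with a log2 fold change of -0.64 (limma adjusted p = 0.0214), and it passed in 7 of 14 other settings, the highest adjusted p being 0.0702. Nitab4.5_0010525g0010, at 1.88, 2.37 and 2.29 FPKM in MuGDH64 and 2.80, 3.04 and 2.86 FPKM in GDH64, did not overlap between the lines and did not pass (limma adjusted p = 0.165). All 6 had a log2 fold change below 0, as did 75.3% of all tested models. The class median was -0.258, which is -0.082 relative to the median of all tested models, and -0.075 after quantile normalization. The summed FPKM of the 6 was 8.63 ± 0.322 in MuGDH64 and 11.9 ± 0.421 in GDH64.

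Identifiers that share their stem were read side by side. Among the members 4 stems occurred more than once. Nitab4.5_0000373g0120 and Nitab4.5_0000373g0130, both of the FAR1 class, stood at 1.88, 1.87 and 1.62 FPKM and at 1.80, 1.74 and 1.72 FPKM in MuGDH64, against 2.80, 3.37 and 2.44 FPKM and 2.42, 2.44 and 1.88 FPKM in GDH64. These models with consecutive numbers were similar in level and did not pass (limma adjusted p = 0.0697 and 0.285). The lines overlapped in neither. The other 3 pairs were less alike. Nitab4.5_0000179g0020 lay at 10.38 to 12.2 FPKM in MuGDH64 and 10.62 to 13.73 FPKM in GDH64, while Nitab4.5_0000179g0050 lay at 1.35 to 2.06 and 1.59 to 2.52 FPKM in MuGDH64 and GDH64. Nitab4.5_0002232g0080 lay at 1.93 to 2.53 FPKM in MuGDH64 and 2.32 to 3.13 FPKM in GDH64, below Nitab4.5_0002232g0050 in every library. The lines overlapped in these 3 models but not in Nitab4.5_0002232g0050. In the remaining pair, Nitab4.5_0001701g0120 (En/Spm) and Nitab4.5_0001701g0150 (FAR1 class) belong to different classes, and the lines overlapped in both. Around the 8 members that passed, 23 of the 38 models within 3 numbers on either side were tested, and 1 of them passed (4.35%, against 11.9% of all tested models), the protein phosphatase 2C Nitab4.5_0001519g0160, at 11.0, 12.05 and 8.2 FPKM in MuGDH64 and 16.45, 16.55 and 14.32 FPKM in GDH64 (limma adjusted p = 0.0389).

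Genes of the silencing pathways that act on transposons were read from 10 lists of domain names. Together they held 252 tested genes, of which 16 (6.35%) were lower in MuGDH64 and none higher, where 9.74% of all tested models were lower. Of the 252, 225 had a log2 fold change below 0 and the median was -0.21. Of all tested models 75.3% were below 0, with a median of -0.176. Among the 16, Nitab4.5_0004829g0060 met the level filter through GDH64 only, so its lines had to differ. After quantile normalization 9 were lower and 1 higher, where 5.17% of all tested models were lower and 4.43% higher. There 142 of the 252 were below 0 with a median of -0.024, and the median of all tested models was -0.005. None of the 9 cytosine-5 DNA methyltransferases, which set DNA methylation, and none of the 46 SNF2-type chromatin remodellers passed. The nearest methyltransferase was Nitab4.5_0004345g0030, described as DNA methyltransferase 1, the type that copies methylation after replication, at 1.61, 1.01 and 0.94 FPKM in MuGDH64 and 1.98, 2.57 and 2.08 FPKM in GDH64 (limma adjusted p = 0.0633). The lines did not overlap in it.

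Proteins that bind methylated DNA gave the largest single change of these lists. Nitab4.5_0004833g0010, with a methyl-CpG-binding domain, stood at 4.17, 3.61 and 3.27 FPKM in MuGDH64 and 16.60, 14.29 and 13.01 FPKM in GDH64. Every MuGDH64 library was far below every GDH64 library (log2 fold change -1.74, limma adjusted p = 2.11e-04, at most 0.00231 in the other settings). Nitab4.5_0001349g0070, of the same description, stood at 6.51, 5.87 and 5.05 against 11.71, 14.50 and 10.74 FPKM (limma adjusted p = 0.00529). These were the 2 of 31 that fell (6.45%, against 9.74% of all tested models), and no other member of that list passed.

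Among small RNA genes, a Dicer-like model that combines PAZ, Dicer dimerisation and ribonuclease III domains, those of the enzymes that cut double-stranded RNA into small RNAs, stood apart. Nitab4.5_0019786g0010 stood at 19.22, 16.18 and 20.40 FPKM in MuGDH64 and 40.06, 38.46 and 30.94 FPKM in GDH64, without overlap (log2 fold change -0.93, limma adjusted p = 0.00435, at most 0.0195 in the other settings). A Piwi-domain model, Nitab4.5_0002954g0070, of the domain by which Argonaute proteins cut their targets, stood at 2.54, 1.00 and 1.46 FPKM in MuGDH64 and 4.75, 9.00 and 5.19 FPKM in GDH64 (limma adjusted p = 0.0115). The Argonaute model Nitab4.5_0000224g0020 stood at 6.26 ± 0.472 FPKM in MuGDH64 and 9.85 ± 0.430 FPKM in GDH64 (limma adjusted p = 0.0136) and missed the threshold after quantile normalization (0.0584). Of 26 genes in the Argonaute list 4 fell and of 38 in the Dicer and ribonuclease III list 6 fell (15.4% and 15.8%, against 9.74% of all tested models), and after quantile normalization 2 and 1 were lower. The lists share 23 genes, since the PAZ domain name holds both words. The ribonuclease III genes outside the Argonaute list gave 3 of these falls among 15 (20.0%) and none after quantile normalization. Among these 3, Nitab4.5_0004829g0060 stood at 0.94, 0.39 and 0.75 FPKM in MuGDH64 and 1.38, 2.64 and 1.81 FPKM in GDH64. It met the filter only through GDH64, so its lines had to differ and its p value is not read as evidence. It also counts among the 6 of the whole list.

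Of the 11 RNA-dependent RNA polymerases, which make RNA double-stranded, 1 fell, where 9.74% of all tested models were lower. Nitab4.5_0000654g0010 stood at 31.47, 29.50 and 27.91 FPKM in MuGDH64 and 43.49, 49.37 and 41.07 FPKM in GDH64, without overlap (log2 fold change -0.57, limma adjusted p = 0.0115). Of 18 genes with an XS domain, found in the small RNA factor SGS3, 1 fell, against the same 9.74%. This was Nitab4.5_0001340g0080, at 5.55 ± 1.30 FPKM in MuGDH64 and 11.1 ± 2.58 FPKM in GDH64 (limma adjusted p = 0.0202). None of the 18 HhH-GPD glycosylases, a family that holds the plant DNA demethylases beside repair enzymes, passed as deposited, and 1 of them, Nitab4.5_0001787g0060, was higher after quantile normalization (adjusted p = 0.0375). Its description is that of an endonuclease III, a repair enzyme.

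Chromatin enzymes gave few changes. Of all tested models 9.74% were lower as deposited and 5.17% after quantile normalization. Of 58 SET domain proteins, the family of histone lysine methyltransferases, 2 fell as deposited and none after quantile normalization. They were Nitab4.5_0002992g0010 (log2 fold change -0.55, limma adjusted p = 0.0332) and the SUVR-type Nitab4.5_0000845g0130. The SUVR-type Nitab4.5_0000845g0130, stood at 1.35, 2.12 and 2.03 FPKM in MuGDH64 and 2.93, 3.31 and 3.23 FPKM in GDH64 (limma adjusted p = 0.0476) and passed in no fit that left out 1 library. Of 29 histone deacetylase models 3 fell (10.3%, near the 9.74% of all tested models), and 2 of these are SAP30 subunits of a deacetylase complex, not the enzyme: Nitab4.5_0001522g0050, at 12.6 ± 1.57 FPKM in MuGDH64 and 23.3 ± 1.61 FPKM in GDH64 (limma adjusted p = 0.00425), and Nitab4.5_0013970g0010, at 27.6 ± 3.23 and 44.9 ± 4.43 FPKM in MuGDH64 and GDH64 (limma adjusted p = 0.0101). The lines did not overlap in either.

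**Figure D5:**
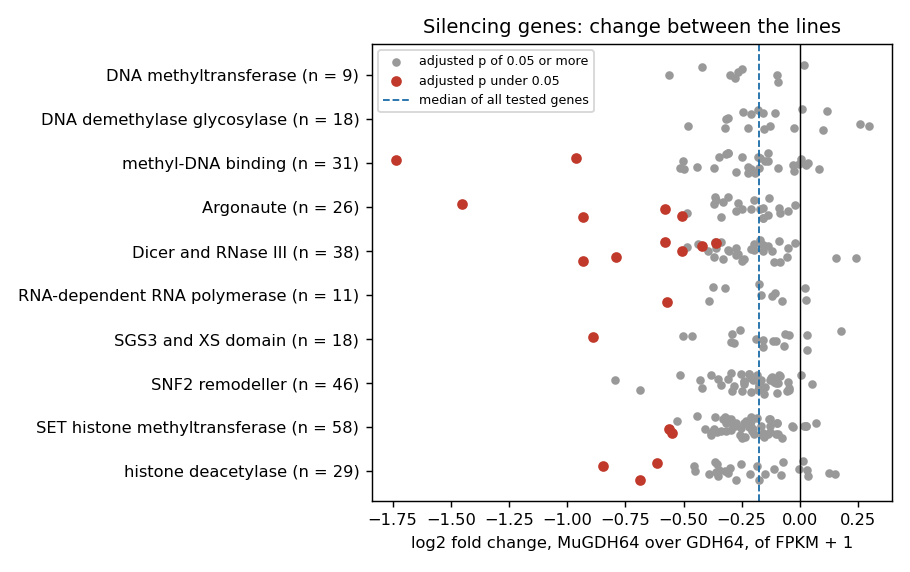
Log2 fold change of FPKM + 1, MuGDH64 over GDH64 (horizontal axis), for the tested genes of 10 silencing lists; red points passed the adjusted p threshold of 0.05, and the dashed line is the median of all tested genes, -0.176. All 16 genes that passed lie below 0, the lowest being a methyl-CpG-binding gene at -1.74; genes in 2 lists are drawn in both.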

How the data were processed

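RNA sequencing was done on 3 MuGDH64 and 3 GDH64 leaf libraries, from TRIzol RNA treated with DNase I and TruSeq libraries read in pairs on a NovaSeq X, per the labels' protocols. The submitters' processing notes name TopHat2 and Cufflinks; for genome build, annotation, versions and settings: not given in the sources used here. No unit is named in the deposited table. The authors' deposited values were taken as FPKM, by inference from Cufflinks in the submitters' processing notes and from their range, and their 2 mean columns match the library columns. Values carry 2 decimals, too coarse to recover reads, so no counting error could be given. Columns were matched by the library names in the labels.

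limma 3.58.1 in R 4.3.3 was run (two-sided, trend option on) with the line as its only term, on log2 values after a pseudocount of 1, over the 32340 models that reached 1 FPKM in 3 or more libraries. On simulated data (32340 genes, 200 changed) 74% of changes of 1 and 93% of changes of 2 on the log2 scale were recovered. There were 11 false among 178 calls. The simulation held no shift between the lines. Its changed genes were drawn only from models with a mean log2(FPKM + 1) above 2. The recovery of lower models, among them the 35 members averaging under 2 FPKM, is therefore not covered. Members are named if they are among the 12 largest changes per direction that passed without overlap, the 2 most abundant of a class, listed at 0 in 1 line only, or the smallest change among members averaging at least 10 FPKM; of each silencing list, up to 2 with the smallest adjusted p. Members named beside these were chosen after their values were seen. The members and lists were chosen with earlier results of these data known. Alternatives were quantile normalization, median-centring, rescaling to a sum of 1000000, no trend, no filter, a filter of 5 FPKM or on a mean of 1 FPKM, a pseudocount of 0.1, a replicate block, and each library left out. Tables and plots were made with Python 3.11.15, pandas 2.3.3 and matplotlib 3.10.9.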

Additional observations from a re-analysis of the deposited data

How the results depend on the processing

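The count of members past the threshold (8) was 5 after quantile normalization, 5 after median-centring, 4 after rescaling and 4 without the filter. These were 4.59%, 4.59%, 3.67% and 3.67% of the 109 members, where 9.60%, 10.3%, 10.9% and 4.93% of all tested models passed. It was 1 without GDH64 library 1, 2 without GDH64 library 2, 4 without GDH64 library 3, and 2, 3 and 2 without MuGDH64 library 1, 2 and 3, with range 1 to 4, where 5.66% to 9.91% of all tested models passed. A member with 1 FPKM in only 3 libraries cannot be tested once 1 of these is left out. With the filter of 5 FPKM 31 members were tested and 6 passed (19.4%), all lower in MuGDH64. There 18.1% of all 19356 tested models passed, 15.1% lower, and 3 of the 6 members were among the 8. The median log2 fold change of the members (-0.179) was 0.001 after quantile normalization and 0.022 after median-centring, where the median of all genes was -0.005 and 0.025; it ran from -0.234 to -0.139 without 1 library. All genes past the threshold (3863) numbered 2280 without the filter and 1794 to 3141 without 1 library. Silencing genes past it (16) numbered 10 after quantile normalization, 10 after median-centring, 10 after rescaling, 9 without the filter and 8 to 15 without 1 library. They are to be read against the same shares of all tested models. The difference in summed member FPKM (-265) was -208 after rescaling and -295 to -223 without 1 library. The cause of these differences was not tested. Deviations of libraries with the same number correlated across genes at 0.0148, 0.0131 and 0.0511, so the numbers were not taken to pair libraries; with the replicate block 8 members, 17 silencing genes and 3991 genes passed, and 7 of the 8 members were shared. The read depth is unknown, and at levels near 1 FPKM the precision cannot be stated.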

Other observations

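Some models outside the level filter are described here, chosen by values seen in the data. Nitab4.5_0000817g0040, an En/Spm model, stood at 33.46 FPKM in GDH64 library 2 and was listed at 0 in the other 5 libraries. Without the filter, 2 of the 165 tested models that are not members passed, both higher in MuGDH64. Of all 46292 models tested in that fit, 1.07% passed as higher and 3.85% as lower. The En/Spm model Nitab4.5_0000999g0130 stood at 0.86, 0.70 and 1.11 FPKM in MuGDH64 and 0.03, 0 and 0 FPKM in GDH64 (limma adjusted p = 0.0079). The MuDR or MULE model Nitab4.5_0004895g0040 stood at 0.30, 0.73 and 0.71 FPKM in MuGDH64 and 0.10, 0 and 0 FPKM in GDH64 (limma adjusted p = 0.0461). In all, 165 of the 971 models lay above 0 but under the filter. Of these, 2 retroelement models stood above 1 FPKM in MuGDH64 library 3 and were listed at 0 elsewhere: the gag model Nitab4.5_0003467g0010 at 1.88 FPKM and the reverse transcriptase model Nitab4.5_0008337g0090 at 1.93 FPKM.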
